A study of Mus musculus with 8 samples.

Results

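Ttr, Kl, Lbp, Car14 and Ace, 5 genes expressed in the epithelium of the choroid plexus, were followed across 8 samples of mouse cortex. They were chosen by their measured values on these same arrays, where signals of choroid plexus genes differed between mice, so their levels are given below as a description and were not tested. The genes were represented by 7 probe sets, 1 each for Ttr, Kl, Lbp and Car14 and 3 for Ace, of 12422 probe sets and 8251 genes in all. A filter on low signals, set at the 40th percentile of mean log2 signal (a signal of 111), was passed by 4 of the 7 probe sets, those of Ttr, Lbp and Car14 and 1 of the 3 for Ace.

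The choroid plexus hangs into the ventricles of the brain and is covered by an epithelium that secretes the cerebrospinal fluid, moving sodium, chloride, bicarbonate and water from blood to ventricle. The same cells make proteins for the fluid, among them transthyretin, the product of Ttr, which they produce in great abundance and which neurons and glia of the cortex make little of. The question was on which arrays, and in which groups of mice, such genes were high in dissected cortex.

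The series compared cortex of S1/2-/- mice, in which SHARP1 (Bhlhe41) and SHARP2 (Bhlhe40) are both deleted constitutively, with that of wildtype (WT) mice at 2 times of the day, ZT16 and ZT4, in hours after light onset. SHARP1 and SHARP2 are basic helix-loop-helix repressors that act on clock genes. The labels give strain C57/bl6 and an age of 4 months for all mice, housed under alternating light and dark phases without other treatment, and a coronal piece of cortex between bregma and 2 mm behind it was taken from each. There were 2 mice in each of 4 groups (S1/2-/- at ZT16, S1/2-/- at ZT4, WT at ZT16 and WT at ZT4), each on 1 Affymetrix array, and each value is a linear MAS5 signal, scaled so that every array has the same trimmed mean of 500.

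The 8 arrays were alike in overall signal. Their medians ran from 186 to 206 and their 10th percentiles from 15.2 to 17.4, and the log2 signals of 2 mice of a group correlated at 0.936 to 0.940 over all probe sets. The ratio of 3' to 5' signal for Actb ran from 1.76 to 2.30 and was highest on WT ZT4 replicate 1, the array on which Ttr, Lbp and Car14 were lowest, and the part of RNA quality in those values was not tested. The targeted gene Bhlhe40 read 1043 and 889 in S1/2-/- mice at ZT16 and 913 and 834 at ZT4, against 1189 and 1285 in WT mice at ZT16 and 1074 and 983 at ZT4. Where its probe set lies relative to the deletion is not stated by labels or methods, and these signals therefore do not check the genotypes.

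Few probe sets were called in any comparison, which sets the background for what follows. At a fold change over 1.5 and a Benjamini-Hochberg adjusted p under 0.05 from limma, 0.0134% of the 7453 tested probe sets were called for ZT16 against ZT4 in WT, 0% for the same comparison in S1/2-/- mice, 0.0134% for S1/2-/- against WT at ZT16, 0.0939% for S1/2-/- against WT at ZT4 and 0% for the difference between the changes of both genotypes. With 2 mice a group, both arrays of a group often lie on 1 side of both arrays of another. Both WT ZT16 arrays lay above both WT ZT4 arrays for 17.6% of all 12422 probe sets, both S1/2-/- ZT16 arrays below both S1/2-/- ZT4 arrays for 18.7%, and both S1/2-/- ZT16 arrays below both WT ZT16 arrays for 18.5%.

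The promoters of Kl and Ace are shown because the mice lack 2 repressors that bind the E-box CACGTG, and because OTX2, the homeodomain factor that maintains choroid plexus epithelium, binds TAATCC. The 150 bases before each start site, from RefSeq on GRCm38.p6 and read 5' to 3' on the gene's strand, follow with TAATCC in capitals.
Kl (chr5:150952457-150952606, plus strand): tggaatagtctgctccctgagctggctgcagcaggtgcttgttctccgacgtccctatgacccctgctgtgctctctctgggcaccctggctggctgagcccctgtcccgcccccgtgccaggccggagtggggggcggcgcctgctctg
Ace (chr11:105967798-105967947, plus strand): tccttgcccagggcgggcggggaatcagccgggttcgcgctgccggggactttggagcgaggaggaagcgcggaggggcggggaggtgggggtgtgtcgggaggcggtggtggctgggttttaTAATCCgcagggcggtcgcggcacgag

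Over the full windows, from 250 bases before the start to 50 after it, TAATCC on either strand occurred once in Ace, 27 bases before the start, and once in Car14, 61 bases before the start that the table gives, which lies inside the annotated span of that gene. It did not occur in Kl or in a second window of Ace further into the gene. CACGTG occurred in none of these windows. No window of Ttr or Lbp was examined, so nothing is said of the motifs in those genes. Of all 32851 promoter windows of this length, 7.06% held TAATCC and 7.15% held CACGTG, and the 2 motifs do not overlap each other in sequence.

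Ttr encodes the carrier of thyroxine and, together with retinol-binding protein, of retinol (chr18:20664209-20674326, GRCm38.p6). Its signal, from probe set 95350_at, was 102 and 150 in S1/2-/- mice at ZT16, 1456 and 146 in S1/2-/- mice at ZT4, 2582 and 2412 in WT mice at ZT16, and 83.2 and 331 in WT mice at ZT4. Both WT ZT16 arrays and 1 of the 2 S1/2-/- ZT4 arrays were thus high, and the other 5 were low. The highest array read 31.0 times the lowest. In S1/2-/- mice the log2 difference of ZT16 from ZT4 was -1.90, and the groups overlapped. In WT they did not overlap, and ZT16 was 15.0-fold above ZT4 (log2 difference 3.91, which was 2.91 without WT ZT4 replicate 1 and 4.91 without replicate 2).

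The split inside the S1/2-/- ZT4 group set every Ttr difference that used it. Replicate 1 of that group read 9.96 times replicate 2, while the 2 mice differed 1.47-fold in S1/2-/- at ZT16, 1.07-fold in WT at ZT16 and 3.98-fold in WT at ZT4. Without replicate 1, the log2 difference of ZT16 from ZT4 in S1/2-/- mice was -0.24, and without replicate 2 it was -3.55. The log2 difference between S1/2-/- and WT at ZT4, 1.47 with all arrays, was -0.18 without S1/2-/- ZT4 replicate 1 and 3.13 without replicate 2. At ZT16, by contrast, both S1/2-/- arrays lay far below both WT arrays, with a log2 difference of -4.33 that ran from -4.61 to -4.05 as single arrays were left out. This comparison and that of the times in WT share the WT ZT16 arrays.

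Kl encodes Klotho, a membrane protein that serves as co-receptor for the hormone FGF23 and is also shed into the fluid (chr5:150952607-150993817). Its signal, from probe set 100956_at, was 12.4 and 13.1 in S1/2-/- mice at ZT16, 178 and 12.1 in S1/2-/- mice at ZT4, 400 and 213 in WT mice at ZT16, and 12.4 and 24.9 in WT mice at ZT4. The arrays with high Kl were those with high Ttr. On 4 of the low arrays Kl lay below the array's 10th percentile of all probe sets, the exception being WT ZT4 replicate 2 at 24.9. A fold change against such values is loosely determined, and the probe set did not pass the filter.

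The log2 difference of ZT16 from ZT4 was -1.86 for Kl in S1/2-/- mice and 4.05 in WT mice, and S1/2-/- lay 4.51 below WT at ZT16 on the same scale (log2 difference -4.51). With 16 added to every signal before the logarithm, the difference in WT was 3.18 and that between the genotypes at ZT16 was -3.42. Kl shared the split of the S1/2-/- ZT4 group, with replicate 1 at 14.7 times replicate 2. Without replicate 1, the log2 difference of ZT16 from ZT4 in S1/2-/- mice was 0.08, and without replicate 2 it was -3.80. That of the genotypes at ZT4 was -0.54 without replicate 1, against 1.40 with all arrays.

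**Figure D1:**
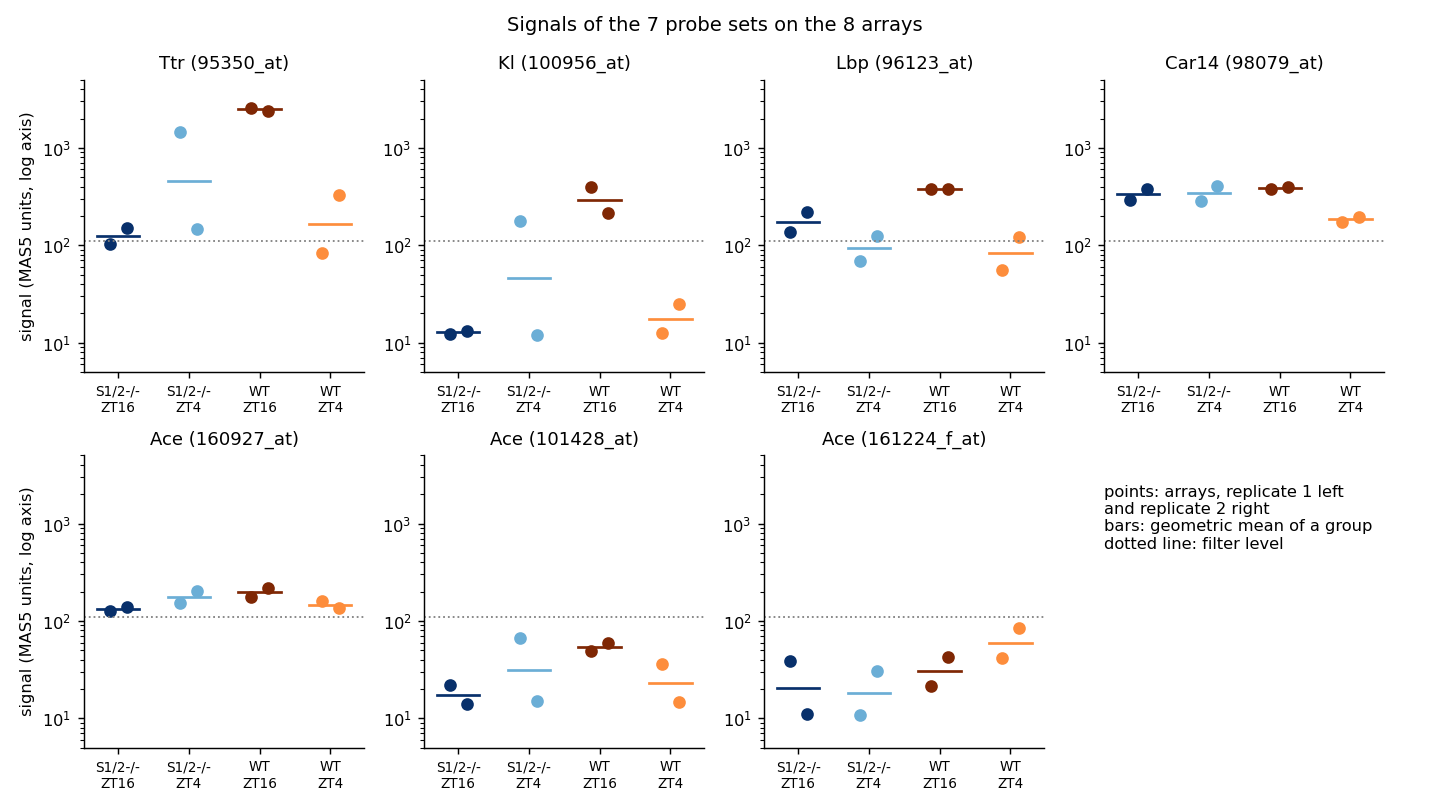
MAS5 signal (log axis) of the 7 probe sets of Ttr, Kl, Lbp, Car14 and Ace in S1/2-/- ZT16, S1/2-/- ZT4, WT ZT16 and WT ZT4 cortex, 1 point per array with replicate 1 on the left, a bar at each group's geometric mean and a dotted line at the filter of 111. Ttr and Kl were high on both WT ZT16 arrays and on S1/2-/- ZT4 replicate 1, whereas Car14 ran from 175 to 410 and was lowest on the WT ZT4 arrays.

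Lbp encodes lipopolysaccharide-binding protein, an acute-phase protein best known from liver that hands bacterial lipopolysaccharide to CD14 (chr2:158306493-158332852). Its signal, from probe set 96123_at, was 138 and 221 in S1/2-/- mice at ZT16, 68.7 and 125 in S1/2-/- mice at ZT4, 380 and 378 in WT mice at ZT16, and 55.8 and 122 in WT mice at ZT4. Lbp, like Ttr and Kl, was highest on both WT ZT16 arrays. Unlike them it was low on S1/2-/- ZT4 replicate 1, which ranked 3 of the 8 arrays for Ttr and Kl and 7 for Lbp.

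In S1/2-/- mice the ZT16 arrays lay above the ZT4 arrays for Lbp by 1.88-fold, which is a log2 difference of 0.91. In WT they did so by 4.59-fold (log2 difference 2.20, from 1.63 to 2.76 as single arrays were left out). At ZT16 the S1/2-/- arrays were below the WT arrays with a log2 difference of -1.12. At ZT4 the log2 difference was 0.17 and its sign turned to -0.26 without S1/2-/- ZT4 replicate 2 and to -0.39 without WT ZT4 replicate 1.

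Car14 encodes a membrane-bound carbonic anhydrase, an enzyme that interconverts carbon dioxide and bicarbonate, with its active site outside the cell (chr3:95897768-95905117). Its signal, from probe set 98079_at, was 295 and 382 in S1/2-/- mice at ZT16, 283 and 410 in S1/2-/- mice at ZT4, 378 and 401 in WT mice at ZT16, and 175 and 197 in WT mice at ZT4. The WT ZT4 arrays were the lowest, and the other 6 arrays overlapped between groups. Car14 was highest on S1/2-/- ZT4 replicate 2, an array with little Ttr or Kl.

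In S1/2-/- mice the log2 difference of Car14 at ZT16 from ZT4 was -0.02, and in WT it was 1.07, 2.10-fold higher at ZT16. Between the genotypes the log2 difference of S1/2-/- from WT was -0.22 at ZT16 and 0.88 at ZT4, where the S1/2-/- arrays lay above the WT arrays. Of all probe sets, 18.9% lay higher in S1/2-/- mice at ZT4 in this way.

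Ace encodes angiotensin-converting enzyme, which cuts angiotensin I to angiotensin II and breaks down bradykinin (chr11:105967948-105989964). The probe set 160927_at, the brightest of its 3, read 127 and 138 in S1/2-/- mice at ZT16, 152 and 203 in S1/2-/- mice at ZT4, 178 and 220 in WT mice at ZT16, and 159 and 135 in WT mice at ZT4. In S1/2-/- mice the ZT16 arrays lay below the ZT4 arrays, and in WT above them. These log2 differences were small, -0.41 in S1/2-/- mice and 0.43 in WT mice. At ZT16 S1/2-/- lay below WT without overlap.

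The 3 probe sets of Ace disagreed. The dimmer 101428_at read 21.8 and 13.9 in S1/2-/- mice at ZT16, 66.6 and 15.1 in S1/2-/- mice at ZT4, 49.3 and 59.1 in WT mice at ZT16, and 35.9 and 14.8 in WT mice at ZT4, so that its 3 highest arrays were those of Ttr and Kl. The probe set 161224_f_at read 38.4 and 11.1 in S1/2-/- mice at ZT16, 10.9 and 30.6 in S1/2-/- mice at ZT4, 21.5 and 42.9 in WT mice at ZT16, and 41.6 and 84.0 in WT mice at ZT4, and was highest on WT ZT4 replicate 2. Both were below the filter, and no single direction can be given for Ace.

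Counted over the 7 probe sets, both WT ZT16 arrays lay above both WT ZT4 arrays for 6, all but Ace 161224_f_at, beside the 17.6% of all probe sets. Both S1/2-/- ZT16 arrays lay below both WT ZT16 arrays for 5, those of Ttr, Kl and Lbp and 2 of Ace, beside 18.5%. Only Ace 160927_at had both S1/2-/- ZT16 arrays below both S1/2-/- ZT4 arrays, beside 18.7%. At ZT4 both S1/2-/- arrays lay above both WT arrays for Car14 alone, beside 18.9%, and below them for Ace 161224_f_at alone, beside 18.4%. Since the genes were selected on these values, nothing is read from these counts.

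**Figure D2:**
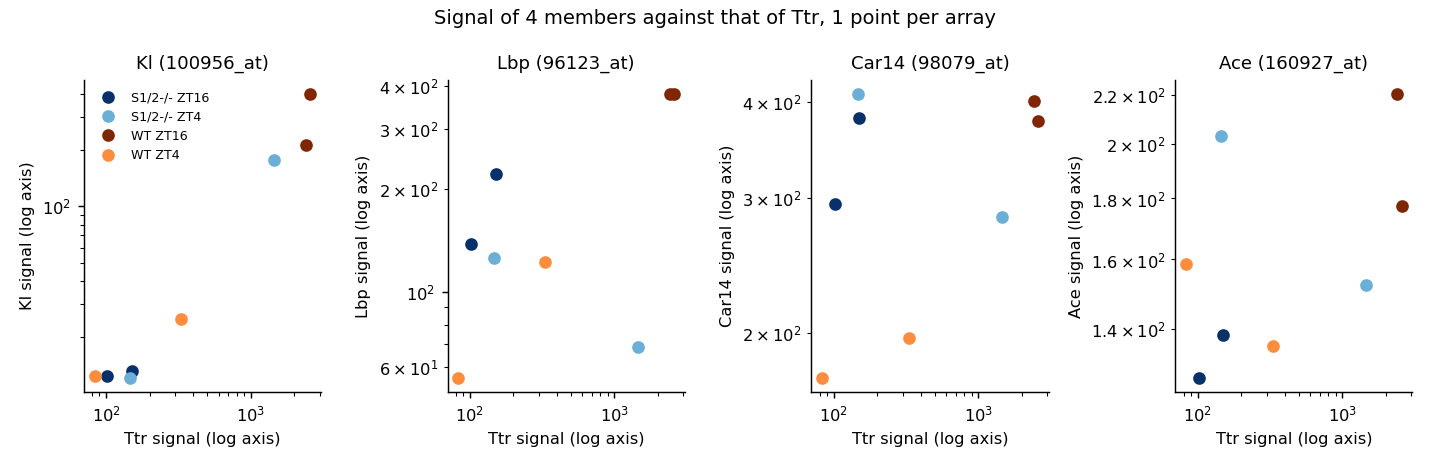
Signal of Kl, Lbp, Car14 and Ace (160927_at) against the signal of Ttr (both log axes), 1 point per array, in S1/2-/- ZT16, S1/2-/- ZT4, WT ZT16 and WT ZT4 cortex. Kl, like Ttr, was high on both WT ZT16 arrays and on S1/2-/- ZT4 replicate 1 and low on the others, without a shared order there. On S1/2-/- ZT4 replicate 1, with a Ttr signal of 1456, Lbp read 68.7 and Car14 read 283.

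Ttr and Kl thus shared 1 pattern across the arrays that Lbp, Car14 and the brightest probe set of Ace did not. Pearson's r between the log2 signals of Ttr and Kl was 0.98 over the 8 arrays (Spearman's rho 0.90), and 0.97 over 6 arrays without both WT ZT16 arrays, the 2 farthest from the median of Ttr. Between Ttr and Lbp r was 0.54, and -0.26 without those 2 arrays. Between Ttr and Car14 it was 0.38, and 0.01 without them. These values describe 8 arrays that fall into 4 groups and share the scaling of the arrays, and 21 pairs of probe sets were computed. On the 6 arrays without WT ZT16, Kl was at 178 on S1/2-/- ZT4 replicate 1 and between 12.1 and 24.9 on the other 5, 4 of them below the 10th percentile of the array.

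Car14 was set beside marker genes of other tissue. Markers of striatal projection neurons, the cells of the tissue beneath this part of the cortex, had a summed signal over 10 genes of 13292 and 19409 in S1/2-/- mice at ZT16, 15102 and 21708 in S1/2-/- mice at ZT4, 17166 and 22018 in WT mice at ZT16, and 9337 and 9786 in WT mice at ZT4. The log2 signal of Car14 correlated with the log2 of this sum at r = 0.97 (rho = 0.95) over the 8 arrays, compared after its values were seen. This was the highest r among those computed for each of the 7 probe sets with each of 18 lists. For Lbp r was 0.64 and for Ace 160927_at it was 0.62. With the summed signal of the 15 other choroid plexus genes above the filter, Car14 had r = 0.82 (rho = 0.55) and Ttr had r = 0.45. That sum is weighted towards its brightest genes, which are not all particular to choroid plexus. All 10 striatal genes were higher at ZT16 than at ZT4 in WT (median log2 difference 0.96, beside -0.0027 over all tested probe sets), 6 of them at an unadjusted p under 0.05 and a fold over 1.5, beside 1.82% of all tested probe sets, and 0 after adjustment. The part of striatal tissue in the values of Car14 was not tested.

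Penk, the precursor of enkephalins, had the largest moderated statistic of the striatal genes in WT. It read 5828 and 9833 in S1/2-/- mice at ZT16, 7651 and 11608 in S1/2-/- mice at ZT4, 8476 and 12383 in WT mice at ZT16, and 3279 and 3601 in WT mice at ZT4. Penk was thus, like Car14, low on both WT ZT4 arrays and, unlike Ttr, it was lower on replicate 1 than on replicate 2 of the S1/2-/- ZT4 group. Penk is part of the striatal sum, in which the brightest genes weigh most. It gave 12383 of the 22018 on WT ZT16 replicate 2 and 3279 of the 9337 on WT ZT4 replicate 1. Its likeness to Car14 is therefore not separate from the correlation of Car14 with that sum.

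The label of the 5 genes was checked against 65 other genes known from choroid plexus epithelium. Not all are particular to it, and Igf2 and Igfbp2 were also in the list for meninges used below. Of the 65 genes, 34 had a probe set of their own and 15 passed the filter. For Otx2, Kcnj13, Clic6, Prlr, Enpp2 and Kcne2, which mark this epithelium well, no probe set was matched by symbol. They were not analysed here. The paper does report Enpp2 from its microarrays, as a myelin marker among the genes higher at ZT16 in WT, with the rise almost lost in S1/2-/- mice. In WT, 10 of the 15 genes were higher at ZT16 than at ZT4 and 5 were lower, with a median log2 difference of 0.26. None passed the adjusted test. Without adjustment, at p under 0.05 and a fold over 1.5, 2 genes were higher, beside 1.82% of all tested probe sets, and 2 were lower, beside 1.62%. The median was -0.01 for ZT16 against ZT4 in S1/2-/- mice, -0.12 for S1/2-/- against WT at ZT16 and 0.17 at ZT4. At ZT16, 2 genes, Slc16a8 and Slc39a4, were higher in S1/2-/- mice without adjustment beside 2.94% of all tested probe sets, and 0 were lower beside 1.34%. In the sum over all 34 genes the arrays read 7643 and 8048 in S1/2-/- mice at ZT16, 8552 and 8164 in S1/2-/- mice at ZT4, 8596 and 8237 in WT mice at ZT16, and 6749 and 7282 in WT mice at ZT4, and none of the 34 was under the floor of 1 on any array. The brightest genes weigh most in this sum. On S1/2-/- ZT16 replicate 1, Igf2 read 1303, Igfbp2 1107.5 and Fxyd1 902 of the 7643.

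Below the filter, Folr1, Slc4a5 and Calml4 were highest on the WT ZT16 arrays. They are named after their values were seen, and other genes below the filter did not share this pattern. In WT mice, Cldn2 read 33.9 and 30.4 at ZT16 against 37.0 and 46.0 at ZT4. Sphk1 read 18.6 and 16.3 at ZT16 against 27.7 and 39.5 at ZT4. Counts in either direction over all 34 genes are given below. Folr1, the folate receptor that brings folate into the cerebrospinal fluid, read on the brighter of its 2 probe sets 23.3 and 31.5 in S1/2-/- mice at ZT16, 116 and 124 in S1/2-/- mice at ZT4, 364 and 335 in WT mice at ZT16, and 33.9 and 77.4 in WT mice at ZT4. Slc4a5, a sodium bicarbonate cotransporter of the ventricular membrane, read 2.9 and 5.5 in S1/2-/- mice at ZT16, 10.1 and 5.0 in S1/2-/- mice at ZT4, 48.7 and 39.6 in WT mice at ZT16, and 3.6 and 5.0 in WT mice at ZT4. For this probe set of Folr1 both S1/2-/- ZT4 arrays came next, at like levels, whereas the other probe set read 29.9 and 27.7 there, 85.7 and 33.2 in WT mice at ZT16 and 47.5 on S1/2-/- ZT16 replicate 2. Apart from the WT ZT16 arrays, every Slc4a5 signal lay below the array's 10th percentile, so those arrays have no order for it. Calml4, a calmodulin-like protein, read 79.9 and 54.0 in S1/2-/- mice at ZT16, 106 and 7.8 in S1/2-/- mice at ZT4, 143 and 138 in WT mice at ZT16, and 32.8 and 7.4 in WT mice at ZT4, with both WT ZT16 arrays and S1/2-/- ZT4 replicate 1 highest.

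Over all 34 genes without the filter, both WT ZT16 arrays were above both WT ZT4 arrays for 15 genes (44.1%) and below them for 4 (11.8%), beside 17.6% and 17.7% of all probe sets. Both S1/2-/- ZT16 arrays were below both WT ZT16 arrays for 12 genes (35.3%) and above them for 5 (14.7%), beside 18.5% and 20.5% of all probe sets. In S1/2-/- mice, 8 genes (23.5%) had both ZT16 arrays below both ZT4 arrays and 2 (5.88%) above them, beside 18.7% and 20.0%. The median log2 difference over the 34 genes was 0.23 for ZT16 against ZT4 in WT, -0.11 for S1/2-/- against WT at ZT16, -0.13 for the times in S1/2-/- mice and 0.17 for the genotypes at ZT4. In these bulk samples, fewer cells of a type and less RNA per cell cannot be told apart.

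**Figure D3:**
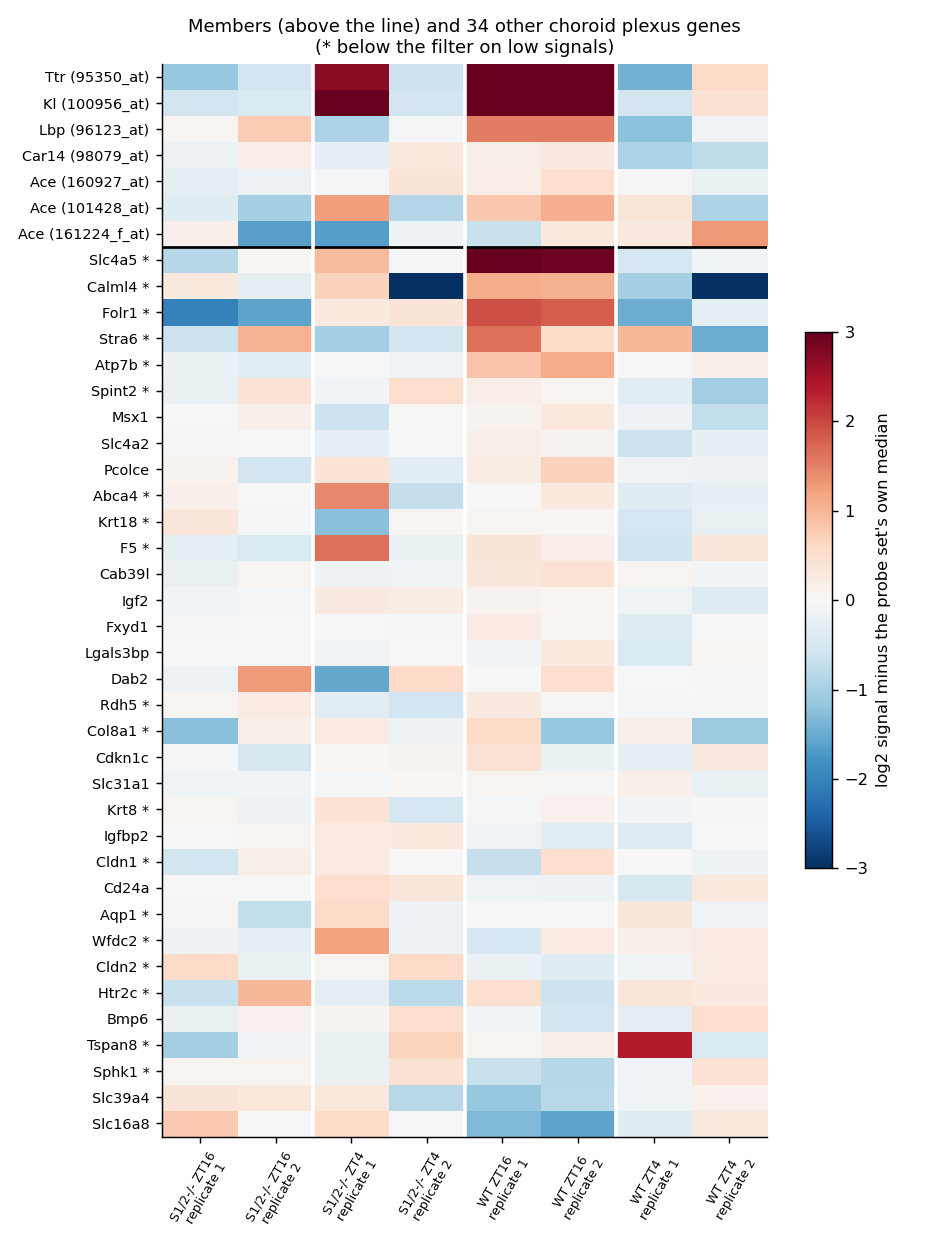
Log2 signal of each probe set minus its own median over the 8 arrays (colour scale clipped at 3 in either direction), for the 7 probe sets of Ttr, Kl, Lbp, Car14 and Ace above the line and the 34 other choroid plexus genes below it, ordered by their WT difference between ZT16 and ZT4. Slc4a5, Calml4 and Folr1 were high on both WT ZT16 arrays, and Slc16a8 and Slc39a4 at the bottom were low there.

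Among the other choroid plexus genes above the filter, those with the widest range between arrays differed in their pattern. Slc16a8, a lactate transporter, read 223 and 129 in S1/2-/- mice at ZT16, 198 and 131 in S1/2-/- mice at ZT4, 51.4 and 43.4 in WT mice at ZT16, and 101 and 159 in WT mice at ZT4, the reverse of Ttr in WT. Slc39a4, a zinc importer, was also low at ZT16 in WT, with 159 and 199 against 322 and 383 at ZT4, and it read 199 on S1/2-/- ZT4 replicate 2 as well. Its other probe set above the filter did not show this, with 154 and 149 at ZT16 against 103 and 229 at ZT4 in WT. The log2 differences of ZT16 from ZT4 in WT were -1.42 (standard error 0.47) for Slc16a8 and -0.98 (standard error 0.33) for the brighter probe set of Slc39a4, each with an adjusted p of 0.625 from limma. Dab2, Bmp6, Cd24a and Cdkn1c had log2 differences between -0.46 and 0.26 in WT. Pcolce, an enhancer of procollagen cleavage, and Msx1, a homeobox factor, had log2 differences of 0.59 and 0.68 in WT, with adjusted p of 0.689 and 0.625.

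**Figure D4:**
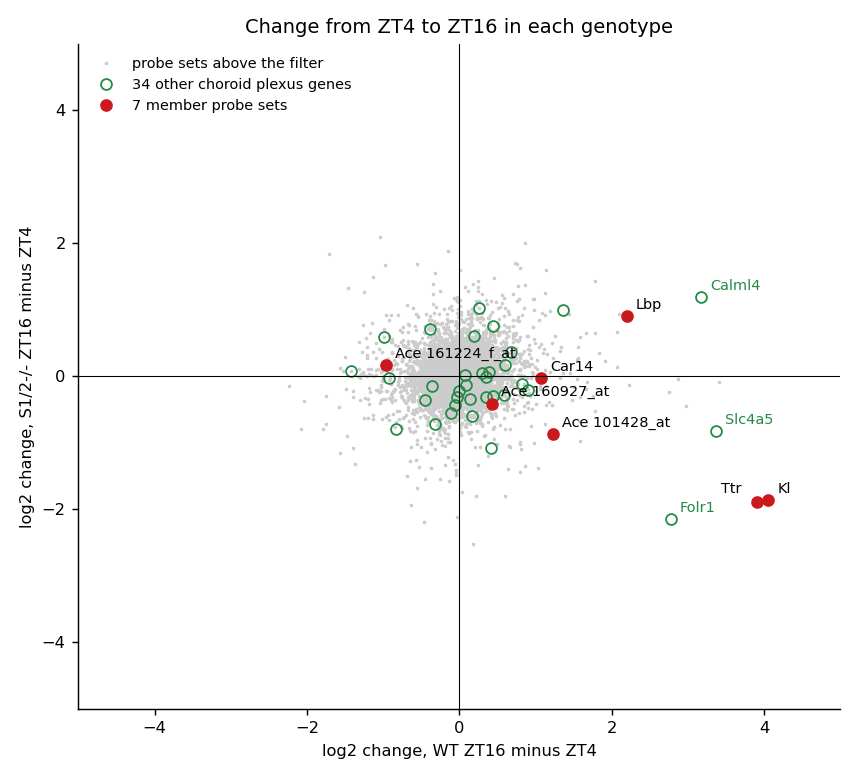
Log2 change of ZT16 from ZT4 in S1/2-/- mice (vertical axis) and in WT mice (horizontal axis) for the tested probe sets (grey), the 34 other choroid plexus genes (open green circles) and the 7 probe sets of Ttr, Kl, Lbp, Car14 and Ace (red). Ttr (-1.90 in S1/2-/- and 3.91 in WT mice), Kl (-1.86 and 4.05) and Folr1 (-2.15 and 2.77) lay at the lower right, and Lbp (0.91 and 2.20) at the upper right. Without S1/2-/- ZT4 replicate 1 the S1/2-/- values were -0.24 for Ttr and 0.08 for Kl.

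The systems in which the members act were examined next through lists of partner genes. For the carriers and receptors of thyroid hormone and retinol, which Ttr serves, 15 of 23 genes were on the array and 8 were tested, 3 higher and 5 lower at ZT16 in WT (median log2 difference -0.07). For the FGF and vitamin D system around Klotho 7 genes were tested, 2 higher and 5 lower (median -0.16). For sensing of lipopolysaccharide, the ligand of Lbp, 6 were tested, 5 higher and 1 lower (median 0.15). Of the other carbonic anhydrases and their receptor-like relatives 7 were tested, 5 higher and 2 lower (median 0.13). In the renin-angiotensin system of Ace 8 were tested, 3 higher and 5 lower (median -0.08), and of the ion and water transporters that form the fluid 15 were tested, 8 higher and 7 lower (median 0.13). No gene of these lists passed the adjusted test in any of the 4 comparisons of groups.

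The gene of each of those lists with the largest moderated statistic in WT had a far smaller difference than Ttr and Kl. Slc4a2, the anion exchanger of the blood-facing membrane, had a log2 difference of 0.60 for ZT16 against ZT4 in WT (standard error 0.20, adjusted p = 0.623), and Car12, another membrane-bound carbonic anhydrase, had 0.69 (standard error 0.28, adjusted p = 0.625). Fgfr2, an FGF receptor, had 0.44 (adjusted p = 0.625), and Irak1, a kinase of Toll-like receptor signalling, had 0.42 (adjusted p = 0.641). Rxrb, a retinoid X receptor, had 0.41 (adjusted p = 0.625), and Atp6ap2, the prorenin receptor, had -0.20 (adjusted p = 0.670). None of these differences was beyond the spread between mice after adjustment.

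Markers of neighbouring tissues were set beside the members. Of the lists for ependymal cells, meninges, endothelium, liver plasma proteins, blood, thalamus, hippocampus, cortical excitatory neurons and astrocytes, each had a median log2 difference between -0.15 and 0.11 for ZT16 against ZT4 in WT, with no gene past the adjusted test. Foxj1, the master regulator of motile cilia in ependyma, read 190 and 269 in S1/2-/- mice at ZT16, 155 and 88.7 in S1/2-/- mice at ZT4, 208 and 384 in WT mice at ZT16, and 268 and 66.5 in WT mice at ZT4, and was thus highest on WT ZT16 replicate 2 and not high on S1/2-/- ZT4 replicate 1. Hbb-b2, a haemoglobin chain, read 286 and 356 in S1/2-/- mice at ZT16, 1221 and 713 in S1/2-/- mice at ZT4, 477 and 383 in WT mice at ZT16, and 352 and 968 in WT mice at ZT4. It was highest on S1/2-/- ZT4 replicate 1, where Ttr was high. On the WT ZT16 arrays, where Ttr was also high, it lay in the middle of its range. It was lower on both S1/2-/- ZT16 arrays and on WT ZT4 replicate 1. The part of blood in the values of Ttr was not tested.

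Markers of myelin were, like Car14, lowest in WT at ZT4. For ZT16 against ZT4 in WT all 12 tested genes had a positive difference (median log2 difference 0.35, 2 at an unadjusted p under 0.05 and a fold over 1.5 beside 1.82% of all tested probe sets, 0 after adjustment), and at ZT4, 11 of 12 were higher in S1/2-/- than in WT mice (median 0.69), 3 of them past the adjusted test beside 0.0939% of all tested probe sets. Their summed signal was 36350 and 38956 in S1/2-/- mice at ZT16, 39668 and 39960 in S1/2-/- mice at ZT4, 33989 and 33929 in WT mice at ZT16, and 26057 and 28952 in WT mice at ZT4. Its correlation with Car14 over the 8 arrays was 0.79. The part of white matter in the values of Car14 was not tested.

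**Figure D5:**
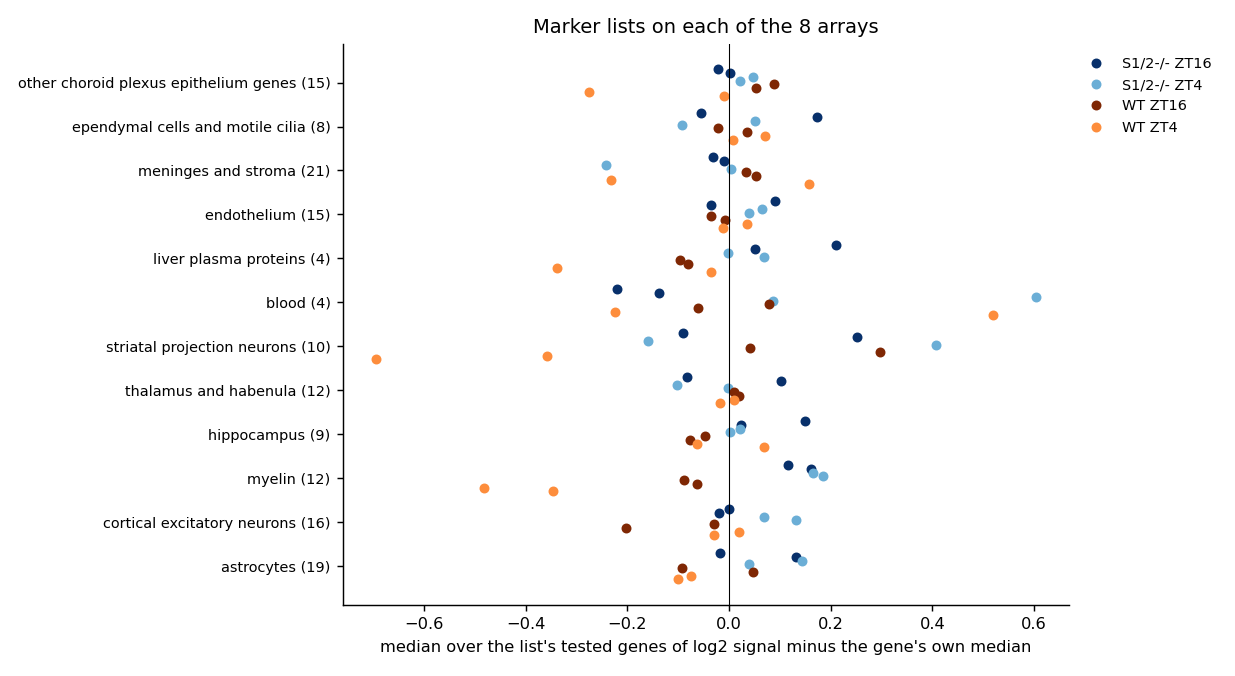
Median, over the tested genes of each marker list (number in brackets), of the log2 signal minus the gene's own median, 1 point per array in S1/2-/- ZT16, S1/2-/- ZT4, WT ZT16 and WT ZT4 cortex. The striatal and myelin lists were lowest on the WT ZT4 arrays, and the list of other choroid plexus genes, which does not contain Ttr, Kl, Lbp, Car14 or Ace, ran from -0.28 on WT ZT4 replicate 1 to 0.09 on WT ZT16 replicate 1.

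The probe sets most like the members over the 8 arrays were sought among 1564 tested probe sets of other genes whose highest and lowest array differed by at least 1 on the log2 scale. Likeness was Pearson's r to the mean of the standardized log2 signals of the 5 genes. The closest was Pdc, phosducin (r = 0.94), with 96.9 and 91.7 in S1/2-/- mice at ZT16, 110 and 96.0 in S1/2-/- mice at ZT4, 336 and 249 in WT mice at ZT16, and 62.4 and 61.3 in WT mice at ZT4. Dusp1 (r = 0.90), a phosphatase induced by neuronal activity, and Ier2 (r = 0.88) and Nr4a1 (r = 0.84), both immediate early genes, followed, together with Clk1, C1qtnf12, Nab2, Col18a1, Tac1 and Pcp4l1 (r from 0.82 to 0.88). Without both WT ZT16 arrays, r of these 10 ran from 0.43 for Nab2 to 0.91 for Tac1, which alone rose. It was 0.77 for Pdc and 0.71 for Dusp1. With all 8 arrays, only Pdc of the 1564 had r over 0.9. None of the 9 probe sets of other choroid plexus genes among the candidates was in the first 10. Those 9 stand for Dab2, Slc39a4, Msx1, Slc16a8, Bmp6 and Pcolce alone. Folr1, Slc4a5 and Calml4 lie below the filter and were not candidates.

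Dusp1 read 1149 and 1082 in S1/2-/- mice at ZT16, 1616 and 1009 in S1/2-/- mice at ZT4, 2129 and 2141 in WT mice at ZT16, and 683 and 662 in WT mice at ZT4. Its 3 highest arrays were those of Ttr and Kl, over a range far narrower than theirs. With Ttr alone as the pattern, a choice made after seeing the data, Ier2 came first (r = 0.93) and Proc next (r = 0.89). Of the first 10, 5 were shared with those above. Pcolce, at rank 14 (r = 0.76), was the closest of the choroid plexus genes above the filter. Without both WT ZT16 arrays, r with Ttr was 0.84 for Ier2, 0.77 for Proc and 0.59 for Pcolce.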

How the data were processed

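Cortex of 8 mice was measured on 1 Affymetrix array each (12488 probe sets). The authors condensed and scaled each array with MAS5 (version not given in the sources used here), and the deposited intensity values are linear MAS5 signals with a 2% trimmed mean of 500. The labels give Trizol extraction, the methods a column kit with 1 round of amplification. Columns were matched to mice by sample title. No detection calls were used.

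Without the 66 controls, the signals were floored at 1 (64 values lay under it) and turned to log2. The test was run on the 7453 probe sets whose mean over the arrays reached 6.79, the 40th percentile. All 8 arrays were fitted as 4 group means with limma 3.58.1 (R 4.3.3) with an intensity trend, and p-values were adjusted by Benjamini-Hochberg over all tested probe sets. A gene of a list was represented by its probe set with the highest mean. Of the 12422 probe sets, 10833 had 1 gene symbol in the array annotation, 396 several and 1193 none. Promoter windows came from RefSeq (GRCm38.p6) and were matched for Kl, Car14 and Ace by symbol. The fit was tested on simulated data.

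The 5 genes and all lists were chosen with earlier results of these data known. The genes named were every probe set of the 5 genes, the 8 tested choroid plexus genes with the widest range between arrays, up to 4 genes of each other list with the largest moderated statistic in WT, the 10 probe sets most like the members, and Bhlhe40. Folr1, Slc4a5, Calml4, Cldn2 and Sphk1 fall outside this rule. Replicate numbers did not pair the mice (correlations of same-numbered deviations from -0.0014 to 0.098), so no block was used. Alternatives were other filters, normalizations and pseudocounts, no intensity trend, the methods' ANOVA, fits of single groups, a replicate block, all probe sets of a gene, and each array left out in turn.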

Additional observations from a re-analysis of the deposited data

Results flagged for a closer look

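The Ace probe set 160927_at moved in opposite directions in the genotypes without overlap of the groups. Its log2 change of ZT16 from ZT4 was -0.41 in S1/2-/- mice and 0.43 in WT mice, and the difference of the changes was -0.84. Of all probe sets, 18.7% had such a fall without overlap in S1/2-/- mice and 17.6% such a rise in WT mice. Ace was chosen by its values on these arrays, so this is a description and was not tested.

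For the brighter probe set of Folr1, ZT16 likewise lay below ZT4 in S1/2-/- mice and above it in WT mice, with log2 changes of -2.15 and 2.77 and a difference of -4.92. For Slc4a5 the S1/2-/- arrays lay below the WT arrays at ZT16. The fitted difference of the changes was -4.19, but all its ZT4 signals were below the 10th percentile of their arrays (the nearest read 5.02 in S1/2-/- and 5.01 in WT mice), so no direction can be read at ZT4. Both genes are below the filter and were left out of the main test. In limma without the filter, the adjusted p of the difference of the changes was 0.413 for Folr1 and 0.663 for Slc4a5. Both were named after their values were seen, so this is no independent test.

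For several tested genes the change with time in the genotypes, or the difference between the genotypes at the 2 times, also ran in opposite directions without overlap. The differences of the changes, S1/2-/- minus WT, were -2.35 for Pdc, -1.86 for Dusp1, -1.77 for Nr4a1, -1.44 for Ier2, -1.23 for Pcp4l1, -1.07 for C1qtnf12, -0.83 for Col18a1 and -0.70 for Clk1, which were picked for their likeness to Ttr and its group, and -1.08 for Cryab, -0.65 for Igf2, -0.43 for Slc4a2 and 0.48 for Atp1b1. The latter were picked for their moderated statistic in WT. Since all were picked on these same arrays, their adjusted p in limma is no independent test. It ran from 0.295 for Dusp1 to 0.912 for Slc4a2, and none was past the threshold. The share of all probe sets with such opposite changes is not given here, so nothing is read from their number.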

How the results depend on the processing

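With 2 mice a group, single arrays set much of what was counted. Of 224 differences of the member probe sets with 1 array left out, 13 had their sign turned. Of 112 under the other alternatives none turned, and 3 moved by over 1 SD of the replicates, those of Kl and Ace 101428_at with 16 added to the signals. The 112 include the replicate block, which cannot change a difference of group means in this balanced design and so does not bear on stability.

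The number of other choroid plexus genes higher at ZT16 in WT at an unadjusted p, 2, was 5 without the filter, 1 with a filter at the 60th percentile, 1 with 16 added and 0 by the methods' ANOVA, and 0 to 2 as single arrays were left out. The number of probe sets called in WT, 1, was 0 without the filter, 4 at the 60th percentile, 5 with median centring, 0 without the intensity trend, 0 by ANOVA, 2 with the WT arrays alone and 10 with the replicate number as a block, and 0 to 100 as single arrays were left out, the 100 without WT ZT16 replicate 1.

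The median of the other choroid plexus genes ran from 0.12 to 0.30 for the times in WT as single arrays were left out, from -0.11 to -0.010 for the times in S1/2-/- mice, from -0.16 to -0.044 for the genotypes at ZT16 and from 0.014 to 0.37 for the genotypes at ZT4. For the times in S1/2-/- mice it was -0.13 without the filter, -0.056 with median centring and 0.044 with all probe sets of a gene, and for the genotypes at ZT16 it was -0.22 with median centring. The causes were not tested. The replicate block could not change these medians, since every group holds both replicate numbers, and same-numbered mice share only a number.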
